A study of Mus musculus with 6 samples.

Results

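The genes described here encode the enzymes and regulators by which a cell burns fatty acids in its mitochondria and stores them as triglyceride in lipid droplets. The set was chosen by a list of 37 named genes, read from the deposited log2 table through probe sets that name exactly 1 gene, with the brightest probe set per gene by its mean over the 6 arrays. Of these 37 genes, 34 had such a probe set, each of them 1, out of 22180 genes with one. Acsl1 and Ucp2 had no probe set that names them and Acsl3 had only one that also names Utp14b. These 3 therefore have no expression result here and enter only the promoter counts. Of the 34 measured genes, 30 passed the filter on dim genes, a mean log2 value of at least 5.07 (the 40th percentile of all genes), and were tested among 13308 genes. The 4 below it were Hadhb, Ppara, Ppargc1a and Dgat2.

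Long-chain fatty acids are joined to coenzyme A by acyl-CoA synthetases, carried into mitochondria as carnitine esters, and shortened step by step by dehydrogenation, hydration, a second oxidation and thiolysis. The electrons of the first step pass through the electron transfer flavoprotein to the respiratory chain. Surplus fatty acid is esterified to triglyceride, coated by perilipins in droplets and released again by lipases. Endothelial cells make most of their ATP by glycolysis, and their fatty acid oxidation is known to supply carbon for nucleotide synthesis and reducing power.

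Bone marrow endothelial cells of male C57BL/6J mice were sorted by flow cytometry, 5000 cells a sample, and their total RNA was amplified and hybridised to arrays. The diabetic group (3 arrays) came from mice with type 2 diabetes induced by high fat feeding, and the nondiabetic group (3 arrays) carries the disease label control. One diet entry, 60 kcal% fat given for 4 months, stands on all 6 samples, so the labels do not settle what the control mice ate, and they give no age. The labels name neither the surface markers of the sort nor whether each array was a separate mouse or a pool. Each p-value therefore sets a difference against the scatter between these arrays, moderated over all tested genes, and that scatter may be technical.

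Endothelial markers were bright: Cdh5, the cadherin of endothelial junctions, lay between 10.60 and 11.38 on all 6 arrays. All 10 of 10 fixed endothelial genes were above the dim limit, with a mean of 8.97 to 9.71 in diabetic and 9.05 to 9.50 in nondiabetic arrays. The 5 measured megakaryocyte and platelet genes were above it too, with means of 8.87 to 9.55 and 8.64 to 9.55. Passing the limit thus does not set endothelial cells apart, and the purity of the sort was not tested. Adipocytes use much of the same lipid machinery, and the mean over their 6 measured markers was 4.91 to 5.31 in diabetic and 5.01 to 5.29 in nondiabetic arrays. Adipoq, the adiponectin gene, lay between 4.17 and 5.24 and was dim, like Cidec and Lep. The other 3 passed the dim limit, the perilipin genes Plin1 at 5.55 ± 0.15 against 5.49 ± 0.12 and Plin4 at 6.53 ± 0.21 against 6.52 ± 0.15, and the resistin gene Retn at 5.49 ± 0.27 against 5.52 ± 0.19 (SD, n = 3 in either group). The part of adipocyte RNA in the member values was not tested. In bulk samples, fewer cells of a type and less RNA per cell cannot be told apart. Diabetic replicate 1 stood apart. Its mean over the endothelial markers was 9.71, where diabetic replicate 3 had 8.97 and the nondiabetic arrays 9.05 to 9.50, and diabetic replicate 2 lay just above replicate 3.

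None of the 30 tested genes passed the test for a difference between diabetic and nondiabetic cells. With limma, a linear model with moderated variances, the adjusted p (Benjamini-Hochberg over all 13308 genes) was 0.997 for each of the 30. At that threshold of 0.05, 0.00751% of all tested genes were called, which is the single gene Rabggtb. At an unadjusted p under 0.05, 1 member of 30 was higher and 0 were lower in diabetic cells, where 3.19% of all tested genes were higher and 1.07% lower, together 4.25%. The groups did not overlap for 2 members, Etfb and Pdk4, both with the diabetic arrays on top, as for 5.28% of all tested genes, and for 0 members the other way, as for 2.67%. Pdk4 passed the dim filter only through its diabetic arrays, so its separation is a description and not a finding.

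The unadjusted count depends on the setting, and in no alternative did a member pass after adjustment. With array weights, 7 of 30 members had an unadjusted p under 0.05, where 8.51% of all tested genes did. The weights were 0.49, 2.96 and 0.67 for diabetic replicates 1 to 3 and 0.85 to 1.10 for the nondiabetic arrays. The weighted diabetic mean therefore rests mostly on diabetic replicate 2. These were Etfb, Cpt1a, Slc25a20, Plin2 and Dgat1 with higher and Acsl4 and Hadh with lower values in diabetic cells. Without diabetic replicate 1 there were 4 of 29 (Etfb higher, Acsl4, Hadh and Gpam lower), beside 5.36% of all tested genes. Without diabetic replicate 3 there were 4 of 30 (Etfb, Slc25a20, Pdk4 and Plin2, all higher), beside 5.14%. Pdk4 was in that count only because its diabetic arrays carried it past the dim filter. Without nondiabetic replicate 3 there were also 4 of 30 (Etfb, Cpt1a, Acadvl and Dgat1, all higher), beside 5.17%. Renewed quantile normalization gave 2 of 30 (Etfb higher, Acsl4 lower), beside 4.52% of all tested genes. Leaving out nondiabetic replicate 2 also gave 2 of 30 (Etfb higher, Echs1 lower), beside 4.00%. Testing all genes with no dim filter gave 2 of 34 (Etfb and Hadhb, both higher), beside 4.12%, and every Hadhb value lay below the dim limit.

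By sign alone, 21 of the 30 had higher and 9 had lower mean values in diabetic cells, 70% higher where 54.0% of all tested genes were. The median difference of the members was 0.08 on the log2 scale, diabetic minus nondiabetic, and that of all tested genes was 0.02. Among the oxidation genes 18 of 23 had higher values, with a median of 0.14, and among the storage genes 3 of 7, with a median of -0.11. The 21 and the 18 include Pdk4, which passed the dim filter only through its diabetic arrays. The contrast of oxidation and storage genes was not tested. Without diabetic replicate 1, 15 of 29 members had higher values with a median of 0.03, beside 48.6% of all tested genes and a median of -0.01. Without diabetic replicate 2 it was 25 of 30, with a median of 0.15, beside 56.1% of all tested genes and a median of 0.03. For 18 of the 30 genes the difference was smaller than its own standard error.

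**Figure D1:**
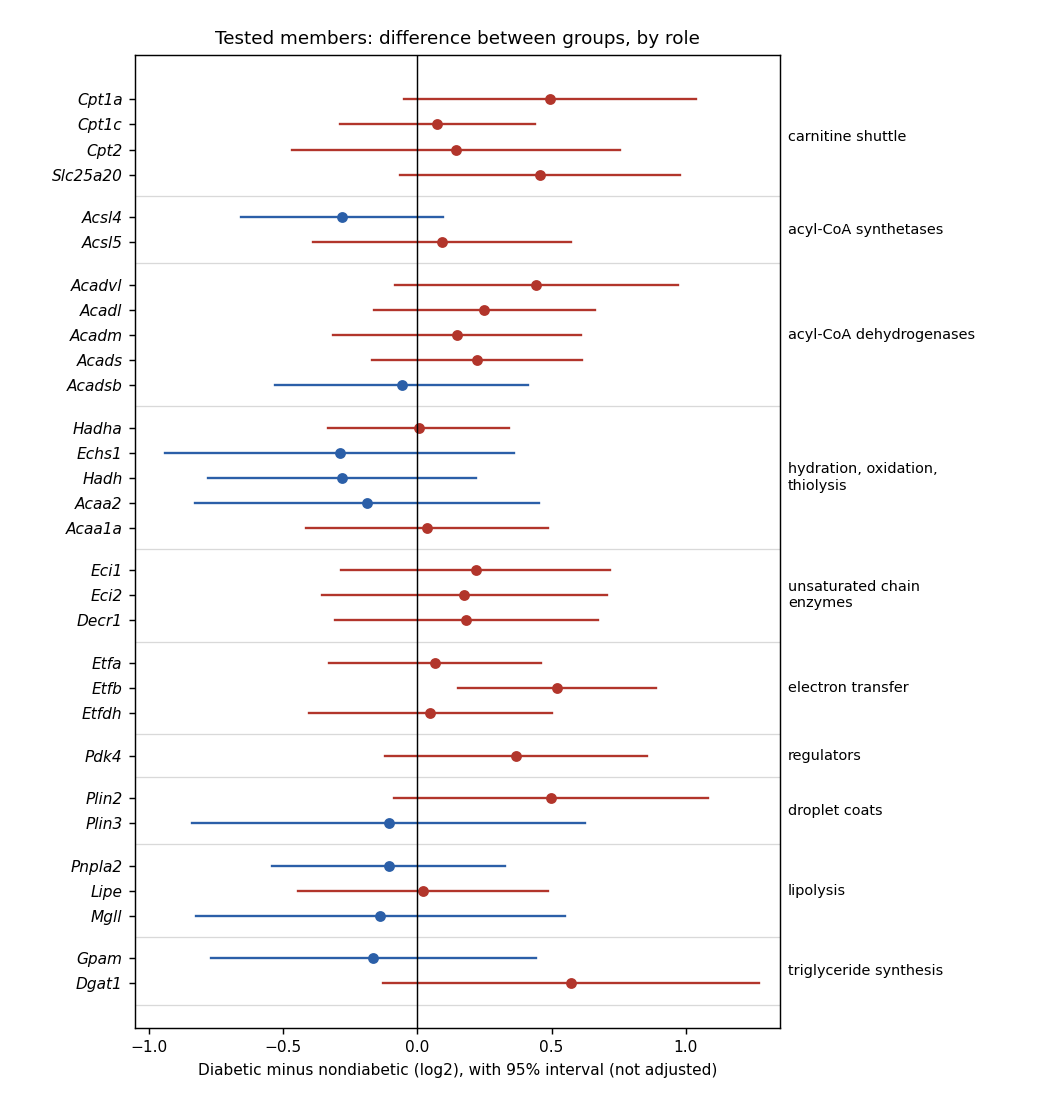
Difference between diabetic and nondiabetic cells (x axis, log2) for each of the 30 tested genes, grouped by role, with points for the estimate (red above 0, blue below; Pdk4 passed the dim filter through its diabetic arrays alone) and lines for the unadjusted 95% interval of the limma fit. The interval of Etfb, 0.15 to 0.89, is the only one of the 30 that leaves out 0.

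The genes with the smallest p-values were Etfb, Cpt1a and Slc25a20, which encode a subunit of the electron transfer flavoprotein, the outer carnitine palmitoyltransferase and the carnitine-acylcarnitine carrier. Their promoters are shown because these 3 genes lead the list, as the 250 bases before the start site in RefSeq, build GRCm38.p6. That of Etfb is chr7:43443822-43444071 on the plus strand. That of Cpt1a is chr19:3323051-3323300 on the plus strand. That of Slc25a20 is chr9:108661886-108662135 on the plus strand. Capitals mark 3 motifs searched on both strands, the GC box GGGCGG, the CCAAT box and the hexamer AGGTCA that nuclear receptors such as PPAR-alpha bind, the last also read as TGACCT.
Etfb: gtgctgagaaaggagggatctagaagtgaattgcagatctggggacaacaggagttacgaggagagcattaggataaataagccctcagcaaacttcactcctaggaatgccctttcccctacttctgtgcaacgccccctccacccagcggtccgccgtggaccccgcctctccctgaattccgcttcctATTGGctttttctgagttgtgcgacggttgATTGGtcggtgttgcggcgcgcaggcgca
Cpt1a: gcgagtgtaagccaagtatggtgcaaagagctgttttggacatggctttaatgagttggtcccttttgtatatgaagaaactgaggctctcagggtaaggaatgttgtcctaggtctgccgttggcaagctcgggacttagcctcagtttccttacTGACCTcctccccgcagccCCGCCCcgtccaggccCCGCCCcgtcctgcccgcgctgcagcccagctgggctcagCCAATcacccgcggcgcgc
Slc25a20: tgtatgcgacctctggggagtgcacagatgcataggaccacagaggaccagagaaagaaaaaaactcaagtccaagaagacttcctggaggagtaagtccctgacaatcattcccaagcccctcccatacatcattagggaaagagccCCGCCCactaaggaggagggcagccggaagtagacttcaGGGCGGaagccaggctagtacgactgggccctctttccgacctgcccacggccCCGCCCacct

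The Cpt1a window held 2 GC boxes, 1 CCAAT box and 1 AGGTCA hexamer, that of Slc25a20 held 3 GC boxes and that of Etfb held 2 CCAAT boxes. RefSeq promoters matched 33 of the 37 genes by symbol, 4 of them with 2 starts, which gave 37 windows. A GC box lay in 24 of the 37 windows (64.9%), against 32.7% of 32851 promoters of all genes. The windows of Hadha and Hadhb, whose starts lie 273 bases apart on opposite strands, overlap, and both are counted with a GC box. With the 4 genes that have 2 starts, the 37 windows are thus not all separate promoters. CCAAT lay in 15 (40.5% against 33.8%) and AGGTCA in 7 (18.9% against 14.0%), among them Acadm, Acadvl, Cpt1a and Plin2. The TATA box TATAAA lay in 0 of 37 windows and in 12.4% of all promoters. A direct repeat of AGGTCA with 1 base between, the element that PPAR and RXR share, was found in 0 windows without mismatch, and with up to 2 mismatches in 3 (8.11% against 3.24%), those of Echs1, Etfa and Plin2. These are matches of letters in a short window and say nothing of binding.

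The carnitine shuttle genes all had higher mean values in diabetic cells, 4 of 4, beside 54.0% of all tested genes. None passed the test. The sign turned for Cpt2 without nondiabetic replicate 1 (-0.051) and for Cpt1c without nondiabetic replicate 2 (-0.00945). Cpt1a, which commits long-chain acyl groups to oxidation and is inhibited by malonyl-CoA, read 7.27, 7.60 and 7.31 in diabetic and 6.45, 6.93 and 7.33 in nondiabetic replicates 1 to 3. The groups overlapped, since nondiabetic replicate 3 stood above diabetic replicates 1 and 3, and the difference was 0.49 (SE 0.24, interval -0.05 to 1.04). Slc25a20, the inner membrane carrier, read 6.00, 5.73 and 5.43 against 4.87, 5.41 and 5.52, a difference of 0.46 (SE 0.23), with overlap and with 1 nondiabetic value below the dim limit. In both genes nondiabetic replicate 1 was the lowest array, and without it the differences were 0.27 and 0.26. Cpt2, which frees the acyl group inside the mitochondrion, differed by 0.14 (SE 0.27) and had its highest value, 7.31, in a nondiabetic array. Cpt1c, a brain-enriched relative located in the endoplasmic reticulum, lay near the dim limit at 5.33 ± 0.13 against 5.26 ± 0.15 (SD, n = 3 each).

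Of the acyl-CoA synthetases, Acsl4, which prefers arachidonate, had lower values in diabetic cells. It read 7.34, 7.05 and 6.95 in diabetic and 7.50, 7.34 and 7.34 in nondiabetic arrays, a difference of -0.28 (SE 0.16, interval -0.66 to 0.10). Diabetic replicate 1 lay among the nondiabetic values and the other diabetic arrays below them. Acsl5, a synthetase of mitochondria and endoplasmic reticulum, differed by 0.09 (SE 0.21), and both its highest value, 8.66, and its lowest, 7.91, were diabetic.

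The acyl-CoA dehydrogenases catalyse the first oxidation, each for a range of chain lengths. In diabetic cells 4 of 5 had higher values, beside 54.0% of all tested genes. Acadvl, for very long chains, read 7.19, 7.06 and 7.31 in diabetic and 6.27, 6.82 and 7.13 in nondiabetic arrays, a difference of 0.44 (SE 0.23). The overlap came from nondiabetic replicate 3, and without nondiabetic replicate 1 the difference was 0.21. Acadl, for long chains, and Acads, for short ones, differed by 0.25 (SE 0.18) and 0.22 (SE 0.17), and kept their sign in every alternative that could move the difference. Acadl differed by 0.15 without diabetic replicate 1 and by 0.37 without nondiabetic replicate 1. Acads differed by 0.13 without diabetic replicate 3 and by 0.34 without diabetic replicate 1. Acadm, the medium-chain enzyme, differed by 0.15 (SE 0.20), and Acadsb, for branched short chains from isoleucine, by -0.06 (SE 0.20).

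The enzymes of the later steps did not share a direction, with 2 of 5 tested genes higher and 3 lower. Echs1, the short-chain hydratase, Hadh, the short-chain hydroxyacyl dehydrogenase, and Acaa2, the mitochondrial thiolase, differed by -0.29 (SE 0.28), -0.28 (SE 0.22) and -0.19 (SE 0.28). Each of these rested on single arrays: Echs1 differed by -0.03 without nondiabetic replicate 1 and by -0.58 without nondiabetic replicate 2. Hadh differed by -0.06 without diabetic replicate 2, whose 7.01 lay below every other array, and by -0.47 without diabetic replicate 1. Acaa2 changed sign, to 0.03, without nondiabetic replicate 2. Acaa1a, a peroxisomal thiolase, differed by 0.04 (SE 0.20).

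Hadha and Hadhb encode the alpha and beta subunits of the mitochondrial trifunctional protein and gave unlike readings. Their RefSeq start sites on chromosome 5 lie 273 bases apart in GRCm38.p6 and point away from each other, Hadha on the minus and Hadhb on the plus strand. Hadha had the smallest standard error of the set. It averaged 8.84 ± 0.05 and 8.84 ± 0.12 in diabetic and nondiabetic cells (SD, n = 3 in either group), and the difference was 0.01 (SE 0.15, interval -0.33 to 0.34). The Hadhb probe set read 4.37, 4.43 and 4.57 in diabetic and 3.90, 3.34 and 3.58 in nondiabetic arrays. All diabetic values lay above all nondiabetic ones, yet all 6 lay below the dim limit, where the signal may be background only. Hadhb was therefore not tested, and its level difference of 0.85 (at least 0.72 with any array left out) had an adjusted p = 0.997 by limma when no filter on dim genes was used.

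The isomerases and the reductase that prepare unsaturated chains for oxidation all had higher mean values in diabetic cells, each by less than its error. This was 3 of 3, beside 54.0% of all tested genes. Eci1 and Eci2, which shift double bonds, differed by 0.22 (SE 0.22) and 0.17 (SE 0.23), and Decr1, the dienoyl-CoA reductase, by 0.18 (SE 0.21). Nondiabetic replicate 2 held the lowest value of both isomerases, 6.32 and 6.76, and without it they differed by 0.06 and -0.00039. Without nondiabetic replicate 3 the 2 differences were 0.41 and 0.39, and that of Decr1 was 0.02. Decr1 differed by 0.06 without diabetic replicate 1 and by 0.36 without nondiabetic replicate 2.

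Etfb had the smallest p of the 30 genes. The flavoprotein of which it encodes the beta subunit takes electrons from all the acyl-CoA dehydrogenases. It read 9.32, 9.13 and 9.23 in diabetic and 8.53, 8.90 and 8.70 in nondiabetic arrays. Every diabetic array lay above every nondiabetic one, and the difference was 0.52 (SE 0.16, interval 0.15 to 0.89), or 1.43-fold, with an unadjusted p = 0.0116 in the limma fit and an adjusted p of 0.997. It ranged from 0.43 to 0.61 with each array left out, and the adjusted p did not fall below 0.509 in any of the 14 alternatives. The partner subunit gene Etfa and the gene of the membrane oxidoreductase Etfdh, which hands the electrons to ubiquinone, differed by 0.07 (SE 0.17) and 0.05 (SE 0.20). Both were highest in diabetic replicate 1, at 8.59 and 8.54, and differed by -0.07 and -0.07 without it.

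**Figure D2:**
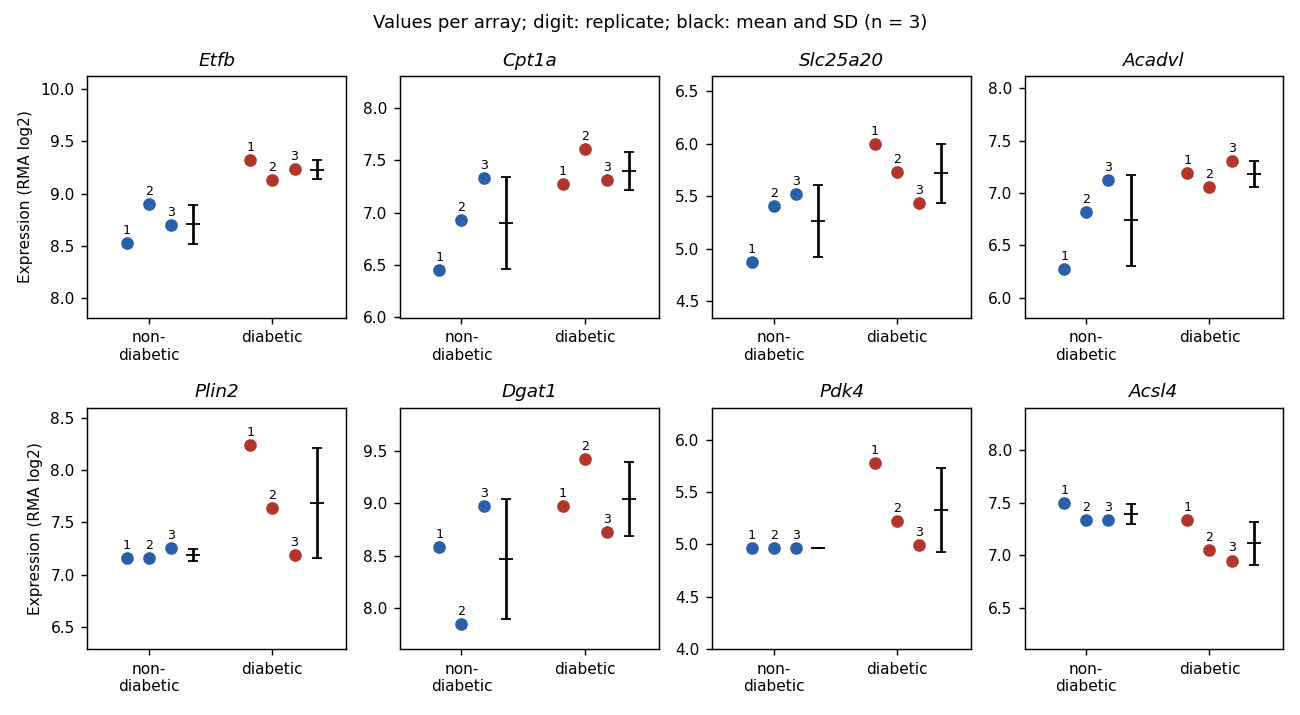
RMA log2 expression (y axis, same span in each panel) of 8 members in the 3 nondiabetic (blue) and 3 diabetic (red) arrays, with the replicate number at each point and the mean and SD in black. Etfb and Pdk4 have all diabetic points above the nondiabetic ones, and nondiabetic replicate 1 is the lowest point for Cpt1a, Slc25a20 and Acadvl.

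Among the regulators, the nuclear receptor gene Ppara and the coactivator gene Ppargc1a, which drive oxidation genes in liver, heart and muscle, were dim on all 6 arrays, from 4.09 to 4.52 and from 3.74 to 4.06. Their level differences were -0.06 and -0.04. Pdk4, whose kinase restrains pyruvate dehydrogenase when fatty acids are burned and which is a known PPAR target, read 5.77, 5.23 and 4.99 in diabetic and 4.96, 4.97 and 4.97 in nondiabetic arrays. The groups did not overlap, but 4 of the 6 values were below the dim limit. The group means differed by 0.37, to which diabetic replicate 1 added most, and without that array the gene was below the filter and was not tested.

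The droplet coat Plin2, a perilipin of most cell types that is stabilised by stored lipid and induced through PPARs, read 8.23, 7.64 and 7.19 in diabetic and 7.16, 7.16 and 7.25 in nondiabetic arrays. Diabetic replicates 1 and 2 lay above the nondiabetic arrays and replicate 3 within them. The difference was 0.50 (SE 0.25, interval -0.09 to 1.08), or 1.41-fold, and it was 0.22 without diabetic replicate 1 and 0.75 without diabetic replicate 3. Plin3, a coat protein that also moves between cytosol and droplets, differed by -0.11 (SE 0.32), the widest error of the set. Its highest value, 7.58, was in nondiabetic replicate 3, and without that array the difference was 0.25.

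The lipase genes Pnpla2, Lipe and Mgll act in turn on triglyceride, diglyceride and monoglyceride, and their differences were -0.11 (SE 0.19), 0.02 (SE 0.20) and -0.14 (SE 0.30). Diabetic replicate 2 held the lowest value of all 3, at 7.57, 5.65 and 7.98. Diabetic replicate 1 held the highest value of Lipe and Mgll, 6.30 and 8.92, so the diabetic arrays spanned both ends. Without diabetic replicate 1 the 3 differences were -0.23, -0.17 and -0.44.

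Of the genes that build triglyceride, Dgat1, which adds the last acyl chain in the endoplasmic reticulum, had the largest difference of the 30, at 0.57 (SE 0.30, interval -0.13 to 1.27), or 1.49-fold. It read 8.98, 9.42 and 8.73 in diabetic and 8.58, 7.85 and 8.98 in nondiabetic arrays, with overlap. Nondiabetic replicate 2 was the low value, and without it the difference was 0.27. Gpam, the mitochondrial enzyme of the first acylation step, differed by -0.16 (SE 0.26), read 6.35 in diabetic replicate 1 and 5.42 and 5.54 in the other diabetic arrays, and differed by -0.45 without replicate 1. Dgat2, which performs the same final step as Dgat1 with another protein fold, was dim on all arrays, at 4.92 ± 0.07 in diabetic and 4.86 ± 0.09 in nondiabetic arrays (SD, n = 3 in either group).

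Single arrays shaped much of this pattern. Diabetic replicate 1 had the highest of the 6 values for 14 of the 30 genes (46.7%) and the lowest for 0, where it was the highest array for 29.9% and the lowest for 14.7% of all tested genes. It lay above the gene's own mean for 28 of 30 members, with a median deviation of 0.23 on the log2 scale, against 65.1% and 0.10 for all tested genes. Diabetic replicate 3 lay above the mean for 8 of 30 members, beside 45.5% of all tested genes, with a median deviation of -0.07. The lowest value was most often in diabetic replicate 2 and nondiabetic replicate 2, for 8 members each (26.7%, beside 14.3% and 14.4% of all tested genes), and in nondiabetic replicate 1, for 7 (23.3%, beside 17.3%). The nondiabetic arrays had median deviations of -0.08, -0.08 and -0.03. The high endothelial markers of diabetic replicate 1 stood beside its high member values. That array also had the widest spread over all measured genes, an SD of 1.79 against 1.64 to 1.69 on the others. It was highest too for the sinusoidal (8.33), monocyte (7.25), B lymphoid (6.26) and plasma cell (8.03) marker lists, and not for the remaining lists. The part of these traits in the member values was not tested.

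**Figure D3:**
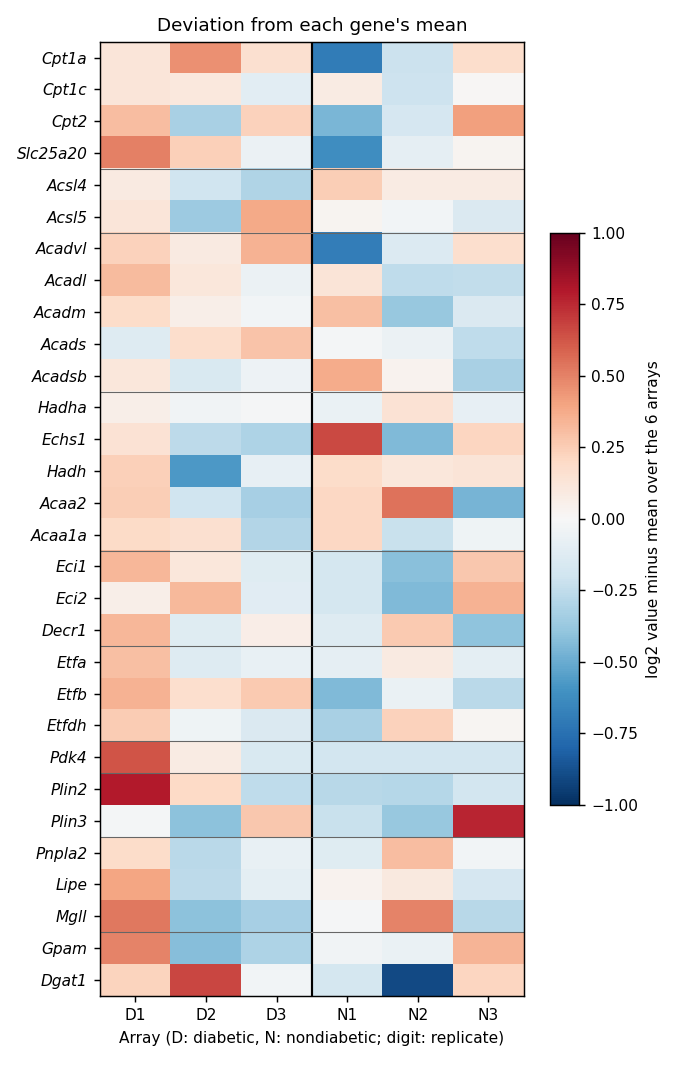
Log2 value of each tested gene minus its mean over the 6 arrays (colour, red above and blue below), with genes in rows by role and arrays in columns (D, diabetic, left of the line, N, nondiabetic, and the replicate number). The D1 column is above the mean for 28 of 30 genes, and Cpt1a, Slc25a20 and Acadvl share a low N1.

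**Figure D4:**
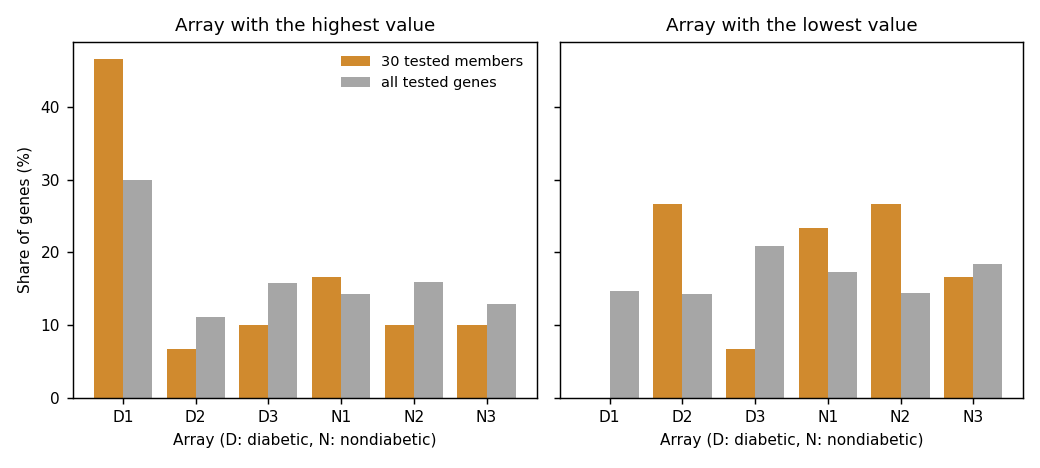
Share of genes (y axis, percent) for which each array had the highest (left) or lowest (right) of the 6 values, for the 30 members (orange) and all 13308 tested genes (grey). Diabetic replicate 1 has the highest share for both, 46.7% and 29.9%.

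Markers of other cells were read on the same arrays. The mean over 9 monocyte and macrophage genes was 6.95 to 7.25 in diabetic and 6.48 to 6.85 in nondiabetic arrays, and that over 9 neutrophil genes was 6.53 to 6.66 and 6.20 to 6.47. Neither pair of groups overlapped (exact permutation p = 0.1 each, two-sided, the smallest that 3 against 3 arrays can give). In the monocyte list, Csf1r, its growth factor receptor, read 5.64 to 6.61 and 5.60 to 5.85, Ms4a6c 7.70 to 8.13 and 7.03 to 7.49, and Adgre1, Mpeg1 and Fcgr1 were dim. In the neutrophil list, the calcium-binding protein genes S100a8 and S100a9 had means of 6.48 and 6.83 in diabetic and 5.49 and 6.26 in nondiabetic arrays, S100a8 with a nondiabetic range of 3.52 to 7.61, and Ltf and Camp were dim. The 6 sinusoidal endothelial genes had means of 7.83 to 8.33 against 7.26 to 7.52, with Stab2 at 8.80 to 9.70 against 7.97 to 8.14 (exact permutation p = 0.1). The part of these cells in the member values was not tested. The groups overlapped for the other lists, with differences of -0.35 for arteriolar endothelium (Gja4 7.95 to 8.28 against 7.89 to 8.96), -0.04 for adipocytes, 0.34 for B lymphoid (Cd79a 5.15 to 7.15 against 4.83 to 5.05) and 0.38 for plasma cells (Sdc1 7.53 to 8.69 against 7.40 to 8.47). They were 0.11 for megakaryocytes (Pf4 9.80 to 10.61 against 9.88 to 10.30), -0.05 for erythroid cells, 0.02 for stroma (Lepr dim) and -0.06 for T and NK cells (Cd3e dim). Every nondiabetic Cd79a value lay below the dim limit, so this gene passed the filter only through its diabetic arrays. Without diabetic replicate 1 the B lymphoid difference was 0.22.

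Other genes of lipid use and neighbouring paths, 99 in 4 lists that hold none of the members, were read in the same fit. The lists also hold genes of valine breakdown, such as Hibch and Acad8, and the kinase genes Pdk1, Pdk2 and Pdk3. All are called other lipid genes below. Of 77 tested 0 passed, with 52 higher (67.5%, beside 54.0% of all tested genes) and 25 lower. Without diabetic replicate 1, 44 of 77 were higher, beside 48.6%. At an unadjusted p under 0.05, 6 were higher and 2 lower, beside 3.19% and 1.07% of all tested genes. The groups did not overlap for 5 higher and 2 lower genes, beside 5.28% and 2.67%. The median difference of the 77 was 0.06. In mitochondrial oxidation outside the core, 13 of 20 had higher values. Hibch, a hydrolase of valine breakdown, read 7.21, 6.92 and 7.07 against 6.35, 6.54 and 6.56, a difference of 0.59 (SE 0.16), and Mcee, an epimerase of the propionate path, differed by 0.69 (SE 0.21), both without overlap. Acad8, the isobutyryl-CoA dehydrogenase of the same valine path, was chosen after its values were seen, as the lowest difference of the 77. It read 6.14, 5.23 and 5.66 against 6.53, 6.22 and 6.28, with all diabetic arrays below, a difference of -0.67 (SE 0.24) that was -0.45 without diabetic replicate 2. In peroxisomal oxidation 6 of 12 were higher. Phyh, which starts the breakdown of phytanic acid, differed by 0.91 (SE 0.30), and by 0.40 when its probe sets were averaged in place of the brightest. Abcd3, a peroxisomal fatty acid transporter, differed by -0.35 (SE 0.21), by -0.19 without diabetic replicate 2 and by -0.18 without nondiabetic replicate 3. The groups overlapped for both.

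In the list of droplet and triglyceride genes 15 of 22 had higher values. Hilpda, a droplet protein that inhibits the lipase encoded by Pnpla2, read 8.10, 7.63 and 7.24 against 6.58, 6.94 and 6.95, and Agpat4, an acyltransferase of phospholipid and triglyceride synthesis, read 5.40, 5.59 and 5.62 against 6.11, 5.97 and 5.91. Neither overlapped, with differences of 0.83 (SE 0.24) and -0.46 (SE 0.15). Of uptake genes and regulators 18 of 23 had higher values. Lipg, the endothelial lipase that acts on lipoproteins, read 8.88, 7.79 and 7.11 against 6.60, 6.32 and 6.76, a difference of 1.37 (SE 0.40), and 0.89 without diabetic replicate 1. Angptl4, whose protein inactivates lipoprotein lipase, had a difference of 0.76 (SE 0.23), and all diabetic arrays lay above all nondiabetic ones for both genes. The adjusted p of each of these 9 genes was 0.997 in the limma fit.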

How the data were processed

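RNA of sorted marrow endothelial cells was amplified with the Ovation Pico WTA system and labelled with biotin, per the labels' protocols. The values the authors deposited are on a log2 scale and come from RMA (background correction, normalization between arrays and summary over probes), per the submitters' processing notes, where no software version is named. Array medians were 5.21 to 5.28, and the 6 arrays limit the precision.

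Of 41345 probe sets, 23521 named 1 gene in the platform annotation, 1814 several and 16010 none; the latter groups were left out. Each gene took its brightest probe set. Groups were compared with limma 3.58.1 (lmFit, eBayes, no covariates) in R 4.3.3 over 13308 genes, with Benjamini-Hochberg adjustment and unadjusted 95% intervals. Differences are diabetic minus nondiabetic; folds are their antilogs. The members, lists and tests were chosen with earlier results of these data known. All members are named, with the 2 genes of smallest p in each other lipid list, the first gene of each marker list where measured, and, where a marker list's groups did not overlap, its gene of smallest p. Acad8 was added after its value was seen. Promoters follow the 3 members of smallest p.

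Alternatives were other filters, the mean of probe sets, renormalization, centring on array medians, array weights, robust variances with a trend, the replicate number as a block, and each array left out in turn. The fit was tested on simulated data with 200 of 13308 genes changed. It recovered 64.3% of changes of 1 log2 unit and 98.9% of those of 2, and 4.84% of its calls were false. Changes as small as the largest member difference, 0.57, were not simulated. Same-numbered arrays of the groups did not deviate together (correlations -0.04, -0.06 and 0.02).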

Additional observations from a re-analysis of the deposited data

How the results depend on the processing

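In all 14 alternatives 0 members and 0 other lipid genes were called, the lowest member adjusted p being 0.509. The count called among all genes was 0 when the dim filter was raised to the 60th percentile and 0 to 1 with each array left out, against 1. Members with higher values numbered 15 (without diabetic replicate 1) to 25 (without diabetic replicate 2), against 21. The shares of all tested genes were 48.6% and 56.1%, against 54.0%. The members numbered 18 after renewed quantile normalization, 20 after median centring and 16 with array weights, beside 47.7%, 52.9% and 50.0% of all tested genes. The replicate block left the count of 0 members as it was. It could not change the differences, since each replicate number stands once in each group. The correlations of same-numbered arrays showed no pairing, but with so few arrays they cannot settle whether there was any.

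Of 30 tested members 14 kept their sign in every alternative that tested them, 11 higher and 3 lower (Acsl4, Echs1 and Hadh). Among them Pdk4 was tested in 12 and Slc25a20 in 13 of the 14. Several alternatives could not move a member's difference: the other filters, the robust variances, the replicate block and the mean of probe sets, as no member had several. A kept sign there says nothing. Renewed normalization, median centring, array weights and each array left out could move it. With array weights, under which diabetic replicate 2 counts most, the Decr1 difference was 0.029 and that of Hadh -0.54. With array weights the sign turned for Cpt2 (-0.047), Acsl5 (-0.15), Hadha (-0.026), Etfa (-0.041) and Lipe (-0.16), with renewed quantile normalization for Hadha (-0.028), Acaa1a (-0.0023) and Lipe (-0.031), and with median centring for Hadha (-0.0014). With each array left out the differences spanned -0.0094 to 0.15 for Cpt1c, -0.051 to 0.39 for Cpt2, -0.075 to 0.30 for Acsl5, -0.0040 to 0.34 for Acadm, -0.23 to 0.12 for Acadsb, -0.034 to 0.077 for Hadha, -0.47 to 0.034 for Acaa2, -0.064 to 0.19 for Acaa1a and -0.00039 to 0.39 for Eci2. They spanned -0.068 to 0.15 for Etfa, -0.10 to 0.18 for Etfdh, -0.32 to 0.25 for Plin3, -0.23 to 0.020 for Pnpla2, -0.17 to 0.16 for Lipe, -0.44 to 0.075 for Mgll and -0.45 to 0.010 for Gpam. The cause was not tested. Dim probe sets limit what Hadhb, Ppara, Ppargc1a, Dgat2 and Pdk4 can show.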
